A study of Mus musculus with 7 samples.

Results

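The 83 genes described here encode the proteins of the cytosolic ribosome. They were chosen by name, from a GRCm38 annotation, as the protein-coding genes whose symbol starts with Rpl or Rps and a digit, together with Rpsa, Rplp0, Rplp1 and Rplp2. Pseudogene symbols with "-ps" and the Rps6k kinases were left out, and a total of at least 70 counts over 7 libraries was required. This gave 83 of 53465 gene IDs in the count table. The annotation held 86 protein-coding symbols of this form, and Rpl39l, Rpl3l and Rpl10l stayed below the count minimum with 14, 13 and 0 counts. Of the 83 genes, 31 encode small subunit proteins, 43 large subunit proteins and 3 the stalk of the large subunit. A further 5 are paralogues that can stand in for, or resemble, a standard subunit (Rpl7l1, Rpl22l1, Rpl36al, Rps27l and Rps27rt). The last, Rps19bp1, meets the naming rule but encodes a regulator of SIRT1 and is no subunit.

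RNA was sequenced from CD4+CD25+ cells, a marker pair typical of regulatory T cells, that were taken from mouse liver by fluorescence-activated sorting. The study asked about CD73 on these cells in fatty liver disease. WT_NCD denotes C57BL/6 wild type mice given normal control diet (2 libraries), WT_MCD the same strain on a methionine/choline-deficient diet (2 libraries) and KO_MCD mice without CD73 on the deficient diet (3 libraries). Every group was fed for 4 weeks, and all libraries came from total RNA extracted with TRIzol. The labels give no knockout group on the control diet, no sex or age, and neither the deleted part of the gene nor the way the knockout was made. They also do not state that libraries of a group came from different mice, so each p-value below reflects the spread between libraries, part of which may be technical.

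The eukaryotic ribosome joins a small subunit, which reads the mRNA, to a large subunit, which forms the peptide bonds. Each subunit is built from ribosomal RNA and a fixed set of proteins that are needed in equal numbers, so their genes are abundantly transcribed in growing cells. Their mRNAs typically begin with a cytosine and a tract of pyrimidines, the 5′ terminal oligopyrimidine (TOP) motif, through which mTORC1 signalling controls their translation. Activated lymphocytes raise ribosome production before they divide.

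The start sites show this motif unevenly. RefSeq promoter windows (GRCm38.p6, 250 bases before and 50 bases from the start on) were found for 63 of the 83 genes by symbol. The annotated start was a C followed by at least 4 C or T in 14 of 63 genes (22.2%), against 2.9% of the 9572 protein-coding genes with a window and at least 70 counts. A run of at least 8 C or T within 25 bases of the start stood in 32 of 63 (50.8%) against 22.8% of those genes, so some tracts lay off the annotated start base. The 30-base windows below are shown to place the pyrimidine tract, which not every window holds at its start. They run from 15 bases before the start to 15 bases from the start on, on the gene's strand, and capitals mark the longest pyrimidine run inside the window.
Rps6, chr4:86857353-86857382, minus strand: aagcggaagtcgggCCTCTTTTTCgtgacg
Rpl35, chr2:39005117-39005146, minus strand: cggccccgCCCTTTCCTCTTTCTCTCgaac
Rpl15, chr14:18270972-18271001, minus strand: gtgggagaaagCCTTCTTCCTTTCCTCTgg
Rps27, chr3:90213634-90213663, minus strand: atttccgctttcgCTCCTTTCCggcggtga
Rpl28, chr7:4792950-4792979, plus strand: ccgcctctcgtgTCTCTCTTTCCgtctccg
Rpl4, chr9:64173372-64173401, plus strand: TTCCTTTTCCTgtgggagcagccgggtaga
Rplp0, chr5:115559452-115559481, plus strand: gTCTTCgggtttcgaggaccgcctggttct
In the first 5 windows the annotated start base lies in a pyrimidine tract. The run of Rpl4 lies before its annotated start, and Rplp0 holds no run of 8 near its start, although these are the genes with the highest levels below. Of 2 short motifs searched on both strands of the whole windows, CCGGAAG stood in 25 of 63 genes (39.7%, against 20.5%) and AAGATGG in 10 (15.9%, against 8.42%). These are matches of letters only.

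Ribosomal protein genes took 0.912% to 1.95% of all gene counts in a library. The share was 1.04% and 1.95% in the WT_NCD libraries, 1.11% and 1.14% in WT_MCD, and 1.34%, 0.912% and 1.88% in KO_MCD. WT_NCD replicate 2 and KO_MCD replicate 3 were thus the highest and KO_MCD replicate 2 the lowest, and the groups overlapped. Group means were 1.498% ± 0.643 (SD, n = 2), 1.12% ± 0.0198 (SD, n = 2) and 1.38% ± 0.487 (SD, n = 3). The spread within WT_NCD and within KO_MCD was larger than any difference between group means. Counting error was small beside it, since the 95% Wilson intervals reached at most 0.006 percentage points to either side. The small subunit took 36.8% to 42.0% of the ribosomal protein counts in every library, so both subunits varied together.

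**Figure D1:**
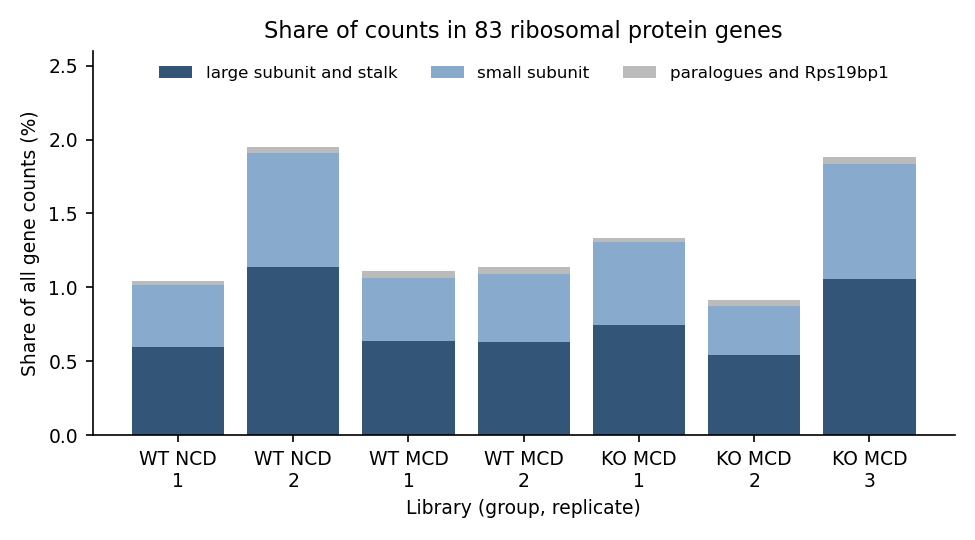
Share of all gene counts (%, y axis) in ribosomal protein genes for each of the 7 libraries (x axis), stacked by large subunit with stalk, small subunit, and paralogues with Rps19bp1. The bars run from 0.912% (KO_MCD replicate 2) to 1.95% (WT_NCD replicate 2). Within WT_NCD and within KO_MCD, but not within WT_MCD, libraries differ more than the group means do.

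Levels differed widely among genes whose products are needed in equal numbers. Levels of different genes are compared here as CPM (counts relative to the TMM-scaled library size) per kb of the median protein-coding transcript. The median gene had 52.1 CPM per kb, with 23 genes over 100 and 13 under 10, and the highest mean was 2404 times the lowest. The 5 genes with the highest mean CPM, without regard to length (Rpl4, Rplp0, Rps6, Rps3 and Rpl6), took 47.2% to 57.9% of all ribosomal protein counts. With the length of all exons together in place of the median transcript, 3 of the top 5 and 4 of the bottom 5 remained in those places, and the median level was 17.1 CPM per kb.

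The top of the order was led by the stalk base protein Rplp0. Rplp0 (ENSMUSG00000067274, chromosome 5, 115559467 to 115563727) had a mean of 1999 CPM per kb ± 899 (SD over 7 libraries). In CPM it had 1347 and 3307 in WT_NCD, 1335 and 1567 in WT_MCD, and 1373, 1012 and 2014 in KO_MCD. Its WT_NCD replicate 2 stood above every other library. Rpl4, a large subunit protein that lines the exit tunnel of the nascent chain, came next with 1561 CPM per kb ± 475 (SD over 7 libraries). Rps6, the small subunit protein phosphorylated by S6 kinases, had 1366 ± 478, Rps3, at the entry of the mRNA channel, 907 ± 325, and Rps9 765 ± 255 CPM per kb. Ranges of mean ± SD overlapped between neighbours in this order, but the SD includes shifts that the genes share within a library. Taken library by library, Rps6 exceeded Rps3 and Rps3 exceeded Rps9 in every library. Rplp0 lay below Rpl4 in KO_MCD replicate 2, and Rpl4 below Rps6 in KO_MCD replicates 1 and 3. The order also depends on the length used: with all exons, Rps3 had 193 and Rps9 250 CPM per kb.

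The bottom of the order held standard subunits too. Rpl24, a protein of the large subunit at the interface with the small subunit, had 9 and 6 counts in WT_NCD, 19 and 8 in WT_MCD, and 28, 3 and 9 in KO_MCD, a mean of 0.832 CPM per kb ± 0.622 (SD over 7 libraries). Rpl13a had 36, 15, 16, 4, 29, 0 and 29 counts in the same order of libraries, and a count of 0 allows up to 0.136 CPM in KO_MCD replicate 2 (3 counts, covering counting error only). Rpl39, a small protein of the exit tunnel, had 10, 50, 9, 6, 57, 5 and 23 counts, or 1.75 CPM per kb ± 1.64 on average. Rpl36al and Rpl28 had means of 1.65 and 2.30 CPM per kb. Rpl28 had 24 to 62 counts, and Rpl36al had from 1 to 65 counts, with 44 and 1 in the WT_NCD libraries.

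The low levels touch on how reads could be assigned. Among windows of 50 bases along the transcripts of a gene, the median ribosomal protein gene had 61.7% that occur in no other annotated gene, against 99.8% over 12037 protein-coding genes. Less than 50% of windows were unique in 29 of 83 genes (34.9%), against 3.33% of those genes. Rpl24 had 18.3% unique windows and Rpl13a 58.9%, while Rpl39 had 83.5%; Rps6 had 15.4% and is among the 5 highest levels. Over the 83 genes the level per kb and the unique share had a Spearman correlation of 0.004, a description over genes that share libraries. Rpl24, Rpl13a, Rpl36al and Rpl13 also overlap another annotated gene on their own strand that is listed with 0 counts (Gm28037, Gm45713, Gm49383 and Gm20388). The part of read assignment in these levels was not tested, and the levels of genes with few unique windows are uncertain.

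**Figure D2:**
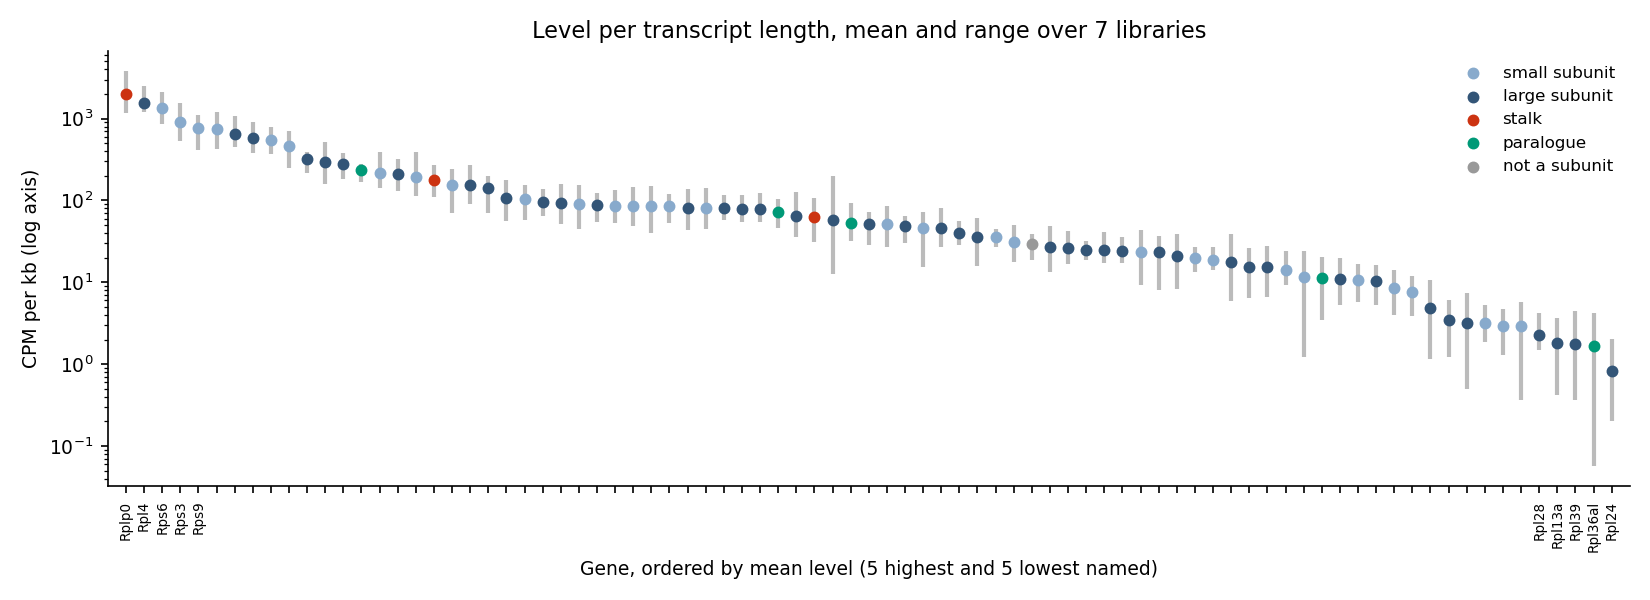
Level per transcript length (CPM per kb, log axis) of the 83 genes, ordered by mean level, with the 5 highest and 5 lowest named. Points are means over 7 libraries, coloured by class, and grey bars run from the lowest to the highest library above 0. The order falls from Rplp0 (1999) to Rpl24 (0.832), with small and large subunit genes throughout.

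The order of the genes was nearly the same in every library, with Spearman correlations of 0.948 to 0.987 over the 21 pairs of libraries (83 genes). Transcripts of these genes are short, with a median of 711.5 bases against 2138 over protein-coding genes with the same count minimum, and level and length had a Spearman correlation of 0.332 over the 83 genes. Small nucleolar RNAs lay inside 30 of the 83 genes (36.1%, 58 such RNAs in all), against 1.63% of protein-coding genes. Rpl4, which holds 5, is an example. Another 24 genes overlapped a gene on the opposite strand, and as no source used here gives the strand setting of the counting, their reads could include those of the partner.

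Ribosomal protein genes moved together between libraries of the same group. KO_MCD replicate 3 was the highest of the 7 libraries for 50 of 83 genes (60.2%, against 11.6% of the 14784 genes tested). KO_MCD replicate 2 was the lowest for 50 of 83 (60.2%, against 27% with ties included). Within the knockout, 70 of 83 genes were highest in replicate 3, against 34% of all genes. WT_NCD replicate 2 exceeded replicate 1 for 66 genes (background 50.3%), and WT_MCD replicate 2 exceeded replicate 1 for 73 (background 51.3%). In the knockout, replicate 3 exceeded replicate 1 for 75 genes (46.3%) and replicate 2 for 74 (47.5%), and replicate 1 exceeded replicate 2 for 68 (50.6%). The median gene was 1.46 times as high in WT_NCD replicate 2 as in replicate 1, 1.41 times as high in WT_MCD replicate 2 as in replicate 1, and 2.25 times as high in KO_MCD replicate 3 as in replicate 2. In these pairs the median over all genes tested differed by at most 0.035 on the log2 scale.

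Expressed as log2(CPM + 0.5) minus each gene's mean over the 7 libraries, the median deviation was -0.24 and 0.32 in WT_NCD, -0.32 and 0.18 in WT_MCD, and 0.01, -0.56 and 0.62 in KO_MCD. Each group therefore held a library above and a library below 0. Around the group means these genes varied less than most: their median dispersion corresponded to a coefficient of variation of 44.9%, against 65% over all genes tested. Rpl13, a large subunit protein, differed 16.1-fold between its lowest and highest library, with 17.2 and 25.3 CPM in WT_NCD, 16.9 and 70.9 in WT_MCD, and 13.7, 9.79 and 158 in KO_MCD. Rpl13 was thus far higher in KO_MCD replicate 3 than in any other library, and only 19.7% of its windows are unique.

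**Figure D3:**
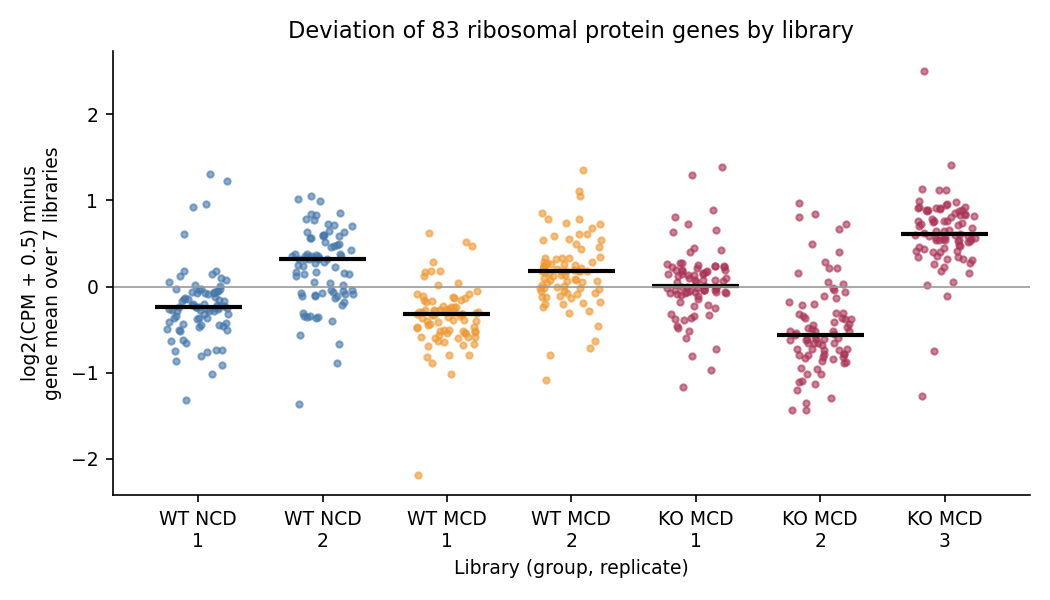
Deviation of each of the 83 genes from its own mean (log2(CPM + 0.5), y axis) in the 7 libraries (x axis). Points are genes, coloured by group, and black lines are medians. The median is lowest in KO_MCD replicate 2 (-0.56) and highest in KO_MCD replicate 3 (0.62), both of the same group.

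Some marker lists of other cells had the same order of libraries within each group as the median ribosomal protein gene, and others did not. Total counts ran from 19731501 to 24398738, highest in WT_NCD replicate 2. Nt5e, which encodes CD73, had 243 and 241 CPM in WT_NCD, 177 and 87.6 in WT_MCD, and 5.88, 14.5 and 6.43 in KO_MCD, below all wild type libraries. Its log2 fold change in KO_MCD was -3.88 (SE 0.51) against WT_MCD and -4.76 (SE 0.52, edgeR adjusted p = 0.203) against WT_NCD. Even this gene was thus not called by edgeR in either comparison. T cell markers (8 of 8 listed, none at 0) summed to 7556 and 11671 CPM in WT_NCD, 8613 and 4363 in WT_MCD, and 5093, 5643 and 5943 in KO_MCD. Regulatory T cell markers (6 of 6 listed, none at 0) summed to 1357 and 1763.5, 2205 and 722, and 1483.5, 1788 and 1594 CPM in the same libraries. Foxp3, the lineage factor of regulatory T cells, had 108 to 287 CPM. Macrophage markers (10 of 10 listed, none at 0) summed to 10731 and 1158 CPM in WT_NCD, 2393 and 32530 in WT_MCD, and 12664, 9451 and 7353 in KO_MCD. All listed macrophage markers thus had counts in every library. WT_NCD replicate 2, high in ribosomal protein counts, had the lowest macrophage sum, and WT_MCD replicate 2, the higher library of its group, had the highest. B cell markers (Pax5 at 0 in some library) summed to 136 and 106 CPM in WT_NCD, 142 and 233 in WT_MCD, and 808, 703 and 265 in KO_MCD. Hepatocyte markers summed to 25.2 and 9.8, 7.2 and 39.2, and 0.971, 7.29 and 5.76 CPM in the same libraries. Dendritic cell markers (6 of 6 listed, Clec9a at 0 in some library) summed to 51.4 and 74.8 CPM in WT_NCD, then 206 and 389 in WT_MCD, and 407, 199 and 826 in KO_MCD. NK cell markers (6 of 6 listed, Klre1 and Ncr1 at 0 in some library) summed to 75.2 and 78.0, 218 and 381, and 208, 155 and 241 CPM in the same libraries. Erythroid markers (5 of 5 listed, Alas2 and Hbb-bt at 0 in some library) summed to 51.4 and 51.8, 26.0 and 330, and 17.9, 4.71 and 34.5 CPM. In these 3 lists, as for the median ribosomal protein gene, replicate 2 was the higher wild type library on either diet, and the knockout order was replicate 3, 1, 2 from high to low. On the control diet, however, the NK cell and erythroid sums of the 2 libraries were nearly equal. The T cell, regulatory T cell, macrophage, B cell and hepatocyte lists did not have this order. The 3 lists are thus grouped by the order itself. The part of other cells in the levels of ribosomal protein genes was not tested, and in bulk RNA fewer cells of a type and less RNA per cell cannot be told apart.

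WT_MCD against WT_NCD compares wild type cells on the deficient and the control diet. Most ribosomal protein genes were lower on the deficient diet in the fit, and most of the small subunit genes, but none passed the test. Of the 83 genes 0 were called by edgeR's quasi-likelihood test with Benjamini-Hochberg adjustment over all 14784 genes (threshold 0.05, background 0%), and 0 had an unadjusted p under 0.05 (background 6%, 3.96% higher and 2.04% lower). DESeq2, which called 2.08% of all genes it gave an adjusted p, and limma voom called 0 of the 83 as well. The fitted log2 fold change was above 0 for 31 of 83 genes, against 52.3% of all genes, with a median of -0.12 beside 0.04 over all genes. Among small subunit genes 8 of 31 were above 0 (median -0.22), among large subunit genes 18 of 43 (median -0.12).

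The direction of that median rested on which libraries were used. It was 0.20 without WT_NCD replicate 2 (63 of 83 above 0) and 0.10 without WT_MCD replicate 1 (51 of 83). It was -0.39 without WT_NCD replicate 1 and -0.46 without WT_MCD replicate 2. The 2 groups did not overlap for 10 of 83 genes, 5 in each direction, against 31.6% of all genes tested (16.8% higher and 14.8% lower). That is a smaller share than the background.

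Rpl34, a large subunit protein, had the smallest p of this comparison. The WT_NCD libraries had 87.3 and 44.5 CPM and the WT_MCD libraries 39.8 and 41.5 CPM, a log2 fold change of -0.70 (SE 0.39, edgeR adjusted p = 0.812). Both WT_MCD libraries lay below both controls, WT_NCD replicate 1 alone stood apart, and without it the value was -0.13 (-1.10 without WT_NCD replicate 2). Rplp0, Rpl6, Rpl4, Rps6 and Rpsa, the last also known as a laminin receptor precursor, had log2 fold changes between -0.68 and -0.52. In these abundant genes WT_NCD replicate 2 stood far above replicate 1, and Rplp0, Rpl6, Rpl4 and Rpsa had 0.11, 0.03, 0.08 and 0.02 without it.

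Among the higher values, Rpl23a, at the mouth of the exit tunnel, had 0.809 and 0.687 CPM on the control diet against 2.882 and 2.1 CPM on the deficient diet (log2 fold change 1.73, SE 1.43), from 16 counts in each control library. Rps19bp1 had 27.0 and 15.9 CPM against 29.01 and 28.2 CPM (0.42, SE 0.51), and Rps27l, described with its parent gene below, had 0.42 (SE 0.43). Rpl7l1 and Rpl13 had 0.28 (SE 0.35) and 1.04 (SE 1.32), and Rpl13 had -0.33 if WT_MCD replicate 2 was left out and 1.72 if replicate 1 was.

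KO_MCD against WT_MCD compares knockout and wild type cells when both are on the deficient diet. Most ribosomal protein genes were higher in the knockout in the fit, but only with KO_MCD replicate 3 included, and none passed the test. By edgeR 0 of 83 genes were called (background 0%) and 0 had an unadjusted p under 0.05 (background 3.25%, 1.2% higher and 2.04% lower), and DESeq2 (which called 0.238% of genes) and limma voom called 0. The log2 fold change was above 0 for 63 of 83 genes, against 47.9% of all genes, with a median of 0.22 beside -0.03 over all genes. Without KO_MCD replicate 3 it was above 0 for 30 of 83, with a median of -0.10. The median was 0.06 without WT_MCD replicate 1, 0.48 without WT_MCD replicate 2 and 0.43 without KO_MCD replicate 2. With the replicate number as a block it was -0.08 (31 of 83 above 0). Only KO_MCD has a replicate 3, so in this block that library has its own coefficient and no weight in the comparison. The block thus resembles the fit without KO_MCD replicate 3 and is no separate check of it.

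The groups did not overlap for 7 of 83 genes, all 7 higher in the knockout, against 18% of all genes (8.37% higher and 9.66% lower). Rpl34 had 68.9, 69.9 and 65.0 CPM in KO_MCD against 39.8 and 41.5 CPM in the wild type, a log2 fold change of 0.74 (SE 0.36, edgeR adjusted p = 1). All 3 knockout libraries lay close together above the wild type, and the value stayed between 0.72 and 0.77 with any library left out. Against WT_NCD, where replicate 1 had 87.3 CPM, the log2 fold change of Rpl34 in KO_MCD was 0.04 (SE 0.35). Rpl27, a large subunit protein, had 38.7, 33.2 and 40.2 CPM against 18.8 and 32.5 CPM (0.54, SE 0.42), with 0.99 if WT_MCD replicate 2 was left out and 0.24 if replicate 1 was. The other 5 were Rps15, Rpl26, Rpl22l1, Rps7 and Rpl12, which are named because the count is small. Rpl41, the shortest ribosomal protein, and Rps27 had 0.64 (SE 0.44) and 0.63 (SE 0.46) with overlapping groups.

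Fewer genes lay lower, and none without overlap. The lower values with the smallest p included those of 2 paralogues. Rps27l had -0.40 (SE 0.39) and Rpl7l1 -0.30 (SE 0.32). Rps19bp1 and Rpl23 had -0.26 (SE 0.46) and -0.31 (SE 0.70). The 3 stalk genes stood almost level in the fit, with log2 fold changes of 0.02 for Rplp0, 0.07 for Rplp1 and 0.11 for Rplp2 (SE 0.44 to 0.62). Rpl5 and Rpl11, which with 5S ribosomal RNA bind Mdm2 when ribosome assembly is disturbed, had 0.20 (SE 0.43) and 0.46 (SE 0.49), and Rpsa 0.01 (SE 0.42).

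KO_MCD against WT_NCD differs in genotype and diet at the same time, and it shares its libraries with the other comparisons. By edgeR 0 of 83 genes were called (background 0%), and 1 of 83 had an unadjusted p under 0.05, on the higher side (background 8.97%, 4.72% higher and 4.25% lower). DESeq2, with 3.98% of all genes called, and limma voom called 0. The log2 fold change was above 0 for 51 of 83 genes, against 52.8% of all genes, with a median of 0.07 beside 0.06 over all genes. The median was -0.27 without KO_MCD replicate 3, -0.12 without WT_NCD replicate 1, 0.37 without WT_NCD replicate 2, 0.32 without KO_MCD replicate 2 and 0.11 without KO_MCD replicate 1. It was -0.26 with the replicate number as a block, where KO_MCD replicate 3 again has no weight, and -0.02 with limma voom.

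The gene with the unadjusted p under 0.05 was Rpl36, a large subunit protein. Rpl36 (ENSMUSG00000057863, chromosome 17, 56613416 to 56614243) had 15.8 and 13.7 CPM in WT_NCD, then 14.8 and 22.7 in WT_MCD, and 35.3, 20.4 and 48.5 in KO_MCD. All knockout libraries lay above both controls, though replicate 2 lay below WT_MCD replicate 2. The log2 fold change against WT_NCD was 1.23 (SE 0.51, edgeR adjusted p = 0.550), and between 0.91 (without KO_MCD replicate 3) and 1.504 with any library left out. Against WT_MCD it was 0.89 (SE 0.50; 0.57 without KO_MCD replicate 3). Only 18.9% of its windows are unique, so its counts are uncertain.

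Groups did not overlap for 10 of 83 genes, 8 higher and 2 lower in the knockout, against 26.1% of all genes (13.4% higher and 12.8% lower). Among them Rpl27 had 18.5 and 26.9 CPM in WT_NCD against 33.2 to 40.2 CPM in KO_MCD (log2 fold change 0.72, SE 0.42). Rpl31, next to the exit tunnel, had 4.199 and 8.46 CPM against 10.01, 10.1 and 17.3 CPM (0.98, SE 0.70), and Rps25 had 0.70 (SE 0.55) with overlap. Rplp0, Rpsa, Rps3 and Rps14 had -0.67, -0.54, -0.44 and -0.44 (SE 0.41 to 0.44), and of these Rplp0, Rps3 and Rpsa had 0.13, 0.25 and 0.02 without WT_NCD replicate 2.

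**Figure D4:**
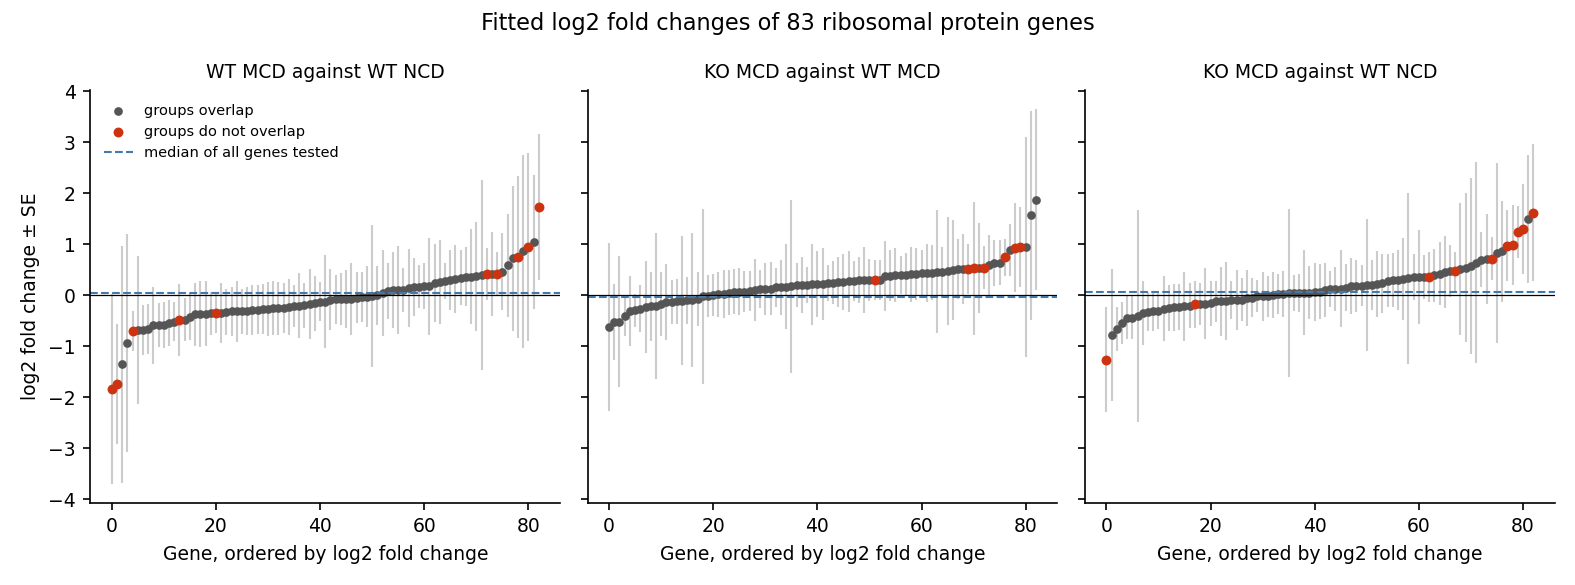
Fitted log2 fold change (y axis, error bars are SE) of the 83 genes in the 3 comparisons, ordered within each panel. Red points are genes whose groups do not overlap (10, 7 and 10 genes), the dashed line is the median of all genes tested, and 31, 63 and 51 genes lie above 0.

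The precision of these libraries left most differences of moderate size undecided. The median SE of a gene's log2 fold change was 0.57, 0.53 and 0.53 in the 3 comparisons. Fitted values lay within a 2-fold change for 78, 81 and 78 of 83 genes, but the 95% interval, on the degrees of freedom of the edgeR test, lay within it for 0, 2 and 8. A 2-fold change was thus not detectable for most of these genes at this number of libraries.

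The 5 paralogue pairs were compared as the log2 ratio of CPM + 0.5 of the paralogue to its parent gene. This ratio takes no account of transcript length, so it compares libraries and does not give the level of a paralogue relative to its parent. Exact two-sided permutation tests were run for 5 pairs in 3 comparisons, 15 tests, and their smallest possible p is 0.333 for 2 against 2 and 0.2 for 2 against 3 libraries, so none can pass. The first 60 coding bases from the annotated transcripts (GENCODE for GRCm38) are shown for 2 pairs, because they set how well reads can tell the genes of a pair apart. Capitals mark bases that differ from the parent gene, which stands on the line before.
Rps27: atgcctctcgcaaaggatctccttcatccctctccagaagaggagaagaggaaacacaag
Rps27l: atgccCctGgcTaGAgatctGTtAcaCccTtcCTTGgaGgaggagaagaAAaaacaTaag
Rpl36a: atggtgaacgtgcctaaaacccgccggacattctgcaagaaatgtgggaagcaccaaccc
Rpl36al: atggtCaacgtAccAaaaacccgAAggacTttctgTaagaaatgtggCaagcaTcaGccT
Rps27l and Rps27 shared 74.9% of 255 aligned coding bases, and Rpl36al and Rpl36a 87.9% of 321. Rpl22l1 and Rpl22 shared 70.2% of 369, and Rpl7l1 and Rpl7 56.0% of 734. The coding sequence of Rps27rt (chromosome 9, 114982366 to 114982739) was identical to that of Rps27 (chromosome 3, 90212522 to 90213651) over all 255 bases, so coding reads cannot separate this pair.

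Rps27l, known as a target of p53, stood closest to its parent in wild type cells on the deficient diet. The log2 ratio to Rps27 was -1.001 and -1.54 in WT_NCD, -0.62 and -0.56 in WT_MCD, and -1.40, -1.27 and -1.92 in KO_MCD. The WT_MCD libraries lay above all 5 others. The difference was 0.68 for WT_MCD against WT_NCD (exact permutation p = 0.333) and -0.94 for KO_MCD against WT_MCD (exact permutation p = 0.2), with adjusted p of 1 over the 15 tests. Left-out libraries gave 0.41 to 0.94 and -1.07 to -0.74. Rps27l itself had 34.7 and 31.3, 36.6 and 51.8, and 35.7, 23.2 and 41.5 CPM in the 3 groups, and Rps27 69.9 and 91.8, 56.5 and 76.8, and 95.1, 56.9 and 158 CPM. Both genes of the ratio thus differed between libraries.

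Rpl22l1, the paralogue of the T cell development factor Rpl22, was lowest relative to its parent on the control diet. The log2 ratio was -2.37 and -2.86 in WT_NCD, -1.85 and -1.81 in WT_MCD, and -1.88, 0.05 and -1.84 in KO_MCD. KO_MCD replicate 2 stood apart, with 11.1 CPM of Rpl22l1 and 10.7 CPM of Rpl22. The transcript of Rpl22 is longer (2048 against 538.5 bases), and per kb that library had 20.6 CPM of Rpl22l1 and 5.24 of Rpl22. The means over all libraries were 11.3 CPM per kb for Rpl22l1 and 10.9 for Rpl22. The difference was 0.79 for WT_MCD against WT_NCD (exact permutation p = 0.333) and 1.39 for KO_MCD against WT_NCD (exact permutation p = 0.2; 0.76 without KO_MCD replicate 2), in both cases without overlap. It was 0.61 for KO_MCD against WT_MCD, with overlap, and -0.03 without KO_MCD replicate 2. Rpl22l1 had 1.87 and 5.24 CPM in WT_NCD, 4.23 and 4.94 in WT_MCD, and 5.97, 11.1 and 9.24 in KO_MCD, with a log2 fold change of 1.30 (SE 0.89, edgeR adjusted p = 0.686) against WT_NCD.

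Rpl7l1 was the only paralogue that exceeded its parent in every library, in CPM (log2 ratios of 1.38 to 2.57) and also per kb. Its WT_MCD libraries (2.44 and 2.15) lay above both WT_NCD libraries (1.54 and 1.86), while the knockout spanned 1.38 to 2.57. Rps27rt had a nearly constant log2 ratio to Rps27, from -2.25 to -1.89 over the 7 libraries. Rpl36al relative to Rpl36a ranged from -4.55 to -0.96 with as few as 1 count of Rpl36al, and the groups overlapped.

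**Figure D5:**
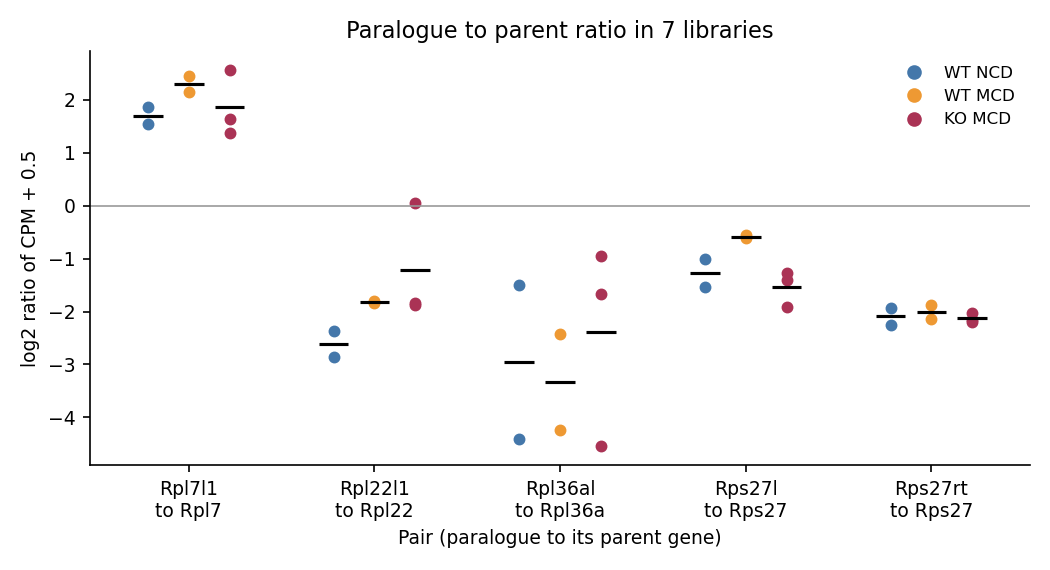
log2 ratio of CPM + 0.5 of each paralogue to its parent gene (y axis) for 5 pairs (x axis). Points are libraries, coloured by group, and black lines are group means. The Rps27l ratio is highest in the WT_MCD libraries (-0.62 and -0.56), and the Rpl22l1 ratio of KO_MCD replicate 2 (0.05) lies apart from the other libraries.

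The rest of the translation machinery showed no gene past the threshold by edgeR either. In the lists of related genes edgeR called 0 genes in each comparison (background 0%). Rack1, a small subunit protein under another name, was highest in the same libraries. It had 149 and 317 CPM in WT_NCD, 175 and 230 in WT_MCD, and 182, 177 and 275 in KO_MCD. The 64 tested ribosomal protein pseudogenes had a median log2 fold change of -0.25 in WT_MCD against WT_NCD, 0.29 in KO_MCD against WT_MCD (44 of 64 higher) and 0.07 in KO_MCD against WT_NCD. These medians had the signs of those of the 83 genes, whose sequences the pseudogenes resemble. Mitochondrial ribosomal proteins, which serve the separate ribosome of mitochondria, had 56 of 76 tested genes lower in KO_MCD against WT_MCD (median -0.16) and 52 of 76 lower in KO_MCD against WT_NCD (median -0.22). In KO_MCD against WT_MCD their median thus had the opposite sign to that of the cytosolic genes, and the difference was not tested. Without KO_MCD replicate 3 the cytosolic median was -0.10.

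Genes that build ribosomes were mostly higher in the knockout in the fit, none past the threshold by edgeR. Of 47 tested assembly factors 33 were higher in KO_MCD against WT_MCD (median 0.18) and 36 in KO_MCD against WT_NCD (median 0.22), beside 47.9% and 52.8% of all genes. Gar1, a protein of the particles that modify ribosomal RNA, had 3.79 and 5.28 CPM in WT_NCD, 10.6 and 8.40 in WT_MCD, and 15.9, 26.8 and 15.4 in KO_MCD (log2 fold change against WT_NCD 2.09, SE 0.62, edgeR adjusted p = 0.429). Its knockout libraries lay above all wild type libraries. Emg1, a methyltransferase of ribosomal RNA, had 196 and 273 CPM in WT_NCD against 149 and 114 in WT_MCD and 111 to 132 in KO_MCD (log2 fold change of KO_MCD against WT_NCD -0.98, SE 0.28, edgeR adjusted p = 0.409). DESeq2, which called 3.98% of all genes in KO_MCD against WT_NCD, called Gar1 there, together with Akt1s1, Rps6ka2 and Rragd. It called no other gene of the related lists in that comparison, with mitochondrial ribosomal proteins and pseudogenes not counted.

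Elongation and initiation factors and regulators were read the same way. Eef1a1, the most abundant elongation factor and itself a TOP mRNA, had 5172 and 12405 CPM in WT_NCD, 5323 and 5773 in WT_MCD, and 6333, 4584 and 8676 in KO_MCD, again highest in WT_NCD replicate 2; it was named after its values were seen. Of the 6 elongation factors tested 5 were lower in KO_MCD against WT_NCD (median -0.40) and 4 in either other comparison. Eef2, which moves the ribosome along the mRNA, had 784 and 1072 CPM in WT_NCD, 772 and 764 in WT_MCD, and 510.2, 529 and 741 in KO_MCD (KO_MCD against WT_NCD -0.65, SE 0.28, edgeR adjusted p = 0.556). All knockout libraries of Eef2 lay below both controls. Eif5a had 453 and 465 CPM in WT_NCD, 586 and 734 in WT_MCD, and 434, 478 and 649 in KO_MCD (WT_MCD against WT_NCD 0.52, SE 0.30). Among 25 tested initiation factors 11 were higher and 14 lower in KO_MCD against WT_MCD, and Eif4g1, the scaffold of cap binding, had 1.03 (SE 0.43) in KO_MCD against WT_NCD. In the mTORC1 list 4 of 36 genes had an unadjusted p under 0.05 in WT_MCD against WT_NCD (background 6%), all higher. Eif4ebp1, the translation repressor that mTORC1 inactivates, was among them with 26.7 and 23.9 CPM on the control diet against 51.2 and 113 CPM in WT_MCD (diet difference as log2 fold change 1.70, SE 0.47, edgeR adjusted p = 0.712). Akt1s1, an inhibitor within mTORC1, had 13.3 and 11.4 CPM in WT_NCD, 32.9 and 34.97 in WT_MCD, and 36.2, 24.5 and 37.3 in KO_MCD. Both WT_MCD libraries lay above both controls for these genes. In the amino acid response list Asns, the asparagine synthetase induced when amino acids are short, had 7.23 and 9.28 CPM in WT_NCD, 57.2 and 25.8 in WT_MCD, and 11.7, 36.9 and 54.8 in KO_MCD (WT_MCD against WT_NCD 2.33, SE 0.77, edgeR adjusted p = 0.775). For Asns, too, all libraries on the deficient diet lay above both controls. Psat1, an enzyme of serine synthesis, lay the other way, with 74.7 and 103 CPM in WT_NCD, 45.5 and 52.98 in WT_MCD, and 37.3, 45.2 and 59.3 in KO_MCD (KO_MCD against WT_NCD -0.91, SE 0.33, edgeR adjusted p = 0.510). Of the 20 tested genes of this list 1 had an unadjusted p under 0.05 in WT_MCD against WT_NCD (background 6%). The same held for 2 in KO_MCD against WT_NCD (background 8.97%), so both counts were near the share over all genes. By direction, 13 were higher and 7 lower in the first comparison, and 14 higher and 6 lower in the second.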

How the data were processed

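The values used are raw counts per gene, as deposited by the authors for each of the 7 libraries. HISAT2 2.1.0 and the build GRCm38 are named in the submitters' processing notes. No source used here gives the counting tool, its annotation or its strand setting. Names, lengths and coordinates came from GENCODE (53360 of 53465 IDs matched), start windows from RefSeq (GRCm38.p6). Total counts were 19731501 to 24398738 per library. Counts were tested with edgeR 4.0.16 (TMM, filterByExpr with minimum count 10, glmQLFTest, 1 coefficient per group, all 7 libraries, prior count 0.125). The code was checked on simulated data, where changes had to be recovered only at a dispersion far below that of these data (median 0.423). That check does not show what could be detected here. DESeq2 1.42.0 and limma 3.58.1 voom, other scalings, filters, a macrophage covariate, a replicate block and left-out libraries were alternatives.

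Members and lists were chosen with earlier results of these data known. The rule named Nt5e, per comparison the 5 genes with the smallest p in each direction, the 5 highest and lowest per length, the paralogue pairs, genes of known role and, per related list, the 2 with the smallest p. Genes named for groups without overlap, Rpl15 and Rpl35 (start windows), Rragd and Eef1a1 were named after their values were seen. Rps14 and Rpl17 have no sequence printed, and some genes that the rule names are not reported here.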

Additional observations from a re-analysis of the deposited data

How the results depend on the processing

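The number of ribosomal protein genes called was 0 in each comparison under every alternative run, including an adjusted p of 0.1, core subunits only, DESeq2, limma voom and each library left out (lowest 0, highest 0). Over left-out libraries the median log2 fold change ran from -0.46 to 0.20 (WT_MCD against WT_NCD), -0.10 to 0.48 (KO_MCD against WT_MCD) and -0.27 to 0.37 (KO_MCD against WT_NCD). Total counts in place of TMM moved the median of all genes in KO_MCD against WT_NCD from 0.06 to 0.16, and that of the 83 genes from 0.07 to 0.19. In KO_MCD against WT_MCD the same setting gave 0.37 for the 83 genes and 0.07 for all genes. The WT_MCD share of counts was 1.16% of protein-coding nuclear counts, 1.18% with ribosomal proteins under other names and pseudogenes, and 1.08% for core subunits; over left-out libraries it was 1.11% to 1.14%, and 1.04% to 1.95% in WT_NCD and 1.13% to 1.61% in KO_MCD. The median level per length was 45.7 to 55.9 CPM per kb over left-out libraries and 17.1 with all exons as the length. In the related lists, without mitochondrial ribosomal proteins and pseudogenes, DESeq2 called 4 genes in KO_MCD against WT_NCD (3.98% of all genes).

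Without KO_MCD replicate 3 the log2 fold change of Rpl13 in KO_MCD against WT_NCD was -0.86 (2.01 without KO_MCD replicate 2). With a replicate block, in which KO_MCD replicate 3 has no weight, it was -0.73. Other reversals came without WT_NCD replicate 2. For WT_MCD against WT_NCD, left-out libraries gave -0.93 to 0.078 for Rpl4, -1.02 to 0.033 for Rpl6, -1.19 to 0.11 for Rplp0 and -0.94 to 0.019 for Rpsa. For KO_MCD against WT_NCD they gave -1.18 to 0.13 for Rplp0, -0.90 to 0.25 for Rps3 and -0.94 to 0.022 for Rpsa. The replicate block called 0 ribosomal protein genes, and the medians were -0.16, -0.08 and -0.26. As no other library has the number 3, both knockout comparisons of this block rest on the libraries without KO_MCD replicate 3. Correlations of same-numbered libraries' deviations were -0.10 to 0.03 over all genes, and over the 83 genes 0.32 between the wild type groups, 0.19 and 0.59 for number 1 and -0.24 and -0.05 for number 2 against KO_MCD. Not every pair was over 0.1 on either measure. In a group of 2 libraries the deviations mirror each other, so these correlations are not independent and cannot exclude a shared batch. The labels do not say what the number marks, so the main fit has no block. Crossed pairing of the wild type libraries called 0 genes (665 with an unadjusted p under 0.05), as did same-number pairing (369); both were chosen after seeing the data, like the left-out libraries for levels and ratios and the alternatives for related lists. No filter on low counts called 54, 1 and 140 genes, of which 0 were ribosomal protein genes. Depth limits the lowest genes, such as Rpl24 with 3 counts in KO_MCD replicate 2.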
